A study of Homo sapiens with 9 samples.

Results

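The enzymes described here make serine, asparagine, proline and cysteine and feed serine carbon into the folate cycle. They are 10 genes chosen by name, ASNS, PHGDH, PSAT1, PSPH, SHMT2, MTHFD2, ALDH18A1, PYCR1, CBS and CTH, out of 26475 rows of the deposited count table. The set was chosen with earlier results of these data known, so its counts and medians beside those of all genes are descriptions. All 10 matched a row and 9 passed the filter on low counts. CBS, with 2 reads in all libraries together, did not.

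Cells make serine from a glycolytic intermediate in 3 steps, catalysed in order by PHGDH, PSAT1 and PSPH. In mitochondria SHMT2 splits serine into glycine and a carbon unit carried by folate, and MTHFD2 oxidises that unit for use in nucleotide synthesis. ASNS makes asparagine from aspartate, ALDH18A1 and PYCR1 make proline from glutamate, and CBS and CTH pass the sulfur of homocysteine to cysteine. Many of these genes are textbook targets of ATF4, a transcription factor whose protein accumulates when amino acids run short or the endoplasmic reticulum is stressed. MDA-MB-231 is known as a breast cancer line with little PHGDH.

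The line, grown from a human breast adenocarcinoma without hormone receptors, was profiled by RNA-seq in 3 groups of 3 libraries. Control cells were stably transduced with pLKO.1 carrying no hairpin, and knockdown cells with pLKO.1-shACSL4, a hairpin against the acyl-CoA synthetase ACSL4. The PRGL493 group was the control cells, empty vector included, given the ACSL4 inhibitor PRGL493. Its dose, exposure time and vehicle are not in the labels, and the number of hairpins or of independent transductions is not given either. The 3 libraries of a group were separate batches of the same cells, and the tests weigh group differences against the variation from batch to batch.

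Library totals ran from 28673938 to 43027190 counts after rounding. ACSL4 stood at 339 to 366 CPM (read counts scaled to a common library size with edgeR's TMM factors) in control, 23.7 to 29.5 in knockdown and 333 to 360 in PRGL493 libraries. VIM, CD44 and AXL, markers of this mesenchymal line, were at 1190 CPM or more in every library, the oestrogen receptor ESR1 had at most 1 read and the progesterone receptor PGR at most 6. ERBB2 was not absent (68.1 to 104 CPM). Of 5 leukocyte markers only CD14 passed 1 CPM, and their summed level was 24.0 to 28.6 CPM in control, 34.1 to 41.4 in knockdown and 19.8 to 22.4 in PRGL493 libraries, an order shared with most of the enzymes. The epithelial marker EPCAM had that order too (17.7 to 18.6, 30.3 to 30.5 and 8.70 to 10.6 CPM). The epithelial marker CDH1 did not, with 1.99 to 2.04 CPM in control, 1.21 to 1.92 in knockdown and 0.42 to 0.876 in PRGL493 libraries. The part of these markers in the results was not tested. The defining leukocyte markers were at or near 0, with at most 3 reads for PTPRC and 1 for CD3E. Summed endothelial markers stayed at or under 3.32 CPM and fibroblast or adipocyte markers at or under 0.804 CPM. Luminal keratins and GATA3, with ESR1, summed to between 722 and 866 CPM and overlapped between all groups. Of these, KRT8 was at 416 to 448 CPM in control, 337 to 406 in knockdown and 458 to 485 in PRGL493 libraries. KRT18 was at 381 to 402, 371 to 441 and 359 to 366 CPM, and GATA3 at 10.9 to 11.4, 13.8 to 14.8 and 13.4 to 15.2. In knockdown replicate 2 short transcripts (up to 2330 bp of exon) deviated from their mean over libraries by 0.17 (median, log2) and long ones (over 5656 bp) by -0.16, while the medians of the other libraries were between -0.08 and 0.06. That library also held the highest value of its group for 9 of the 9 enzymes tested, of which 4 have short and none long transcripts.

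Under PRGL493 the synthesis enzymes fell. Of 9 tested, 8 were lower than control and 1, ALDH18A1, was higher, where 20.4% of all 14135 genes tested were called lower and 21.4% higher, 41.8% in all (edgeR quasi-likelihood test, Benjamini-Hochberg adjusted p below 0.05). Asparagine synthetase fell furthest, to 38.0% of control, and the first serine enzymes PHGDH and PSAT1 fell to 49.6% and 49.1%. Their median log2 fold change was -0.61, beside 0.01 for all genes. No library of the PRGL493 group overlapped with a control library for any of the 9, where 27.2% of all genes were separated downward and 30.1% upward, 57.2% in all.

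In knockdown cells most of these enzymes rose. Of 9 tested, 7 were called higher and none lower, where 14.7% of all genes were higher and 15.3% lower, 30.1% in all. PHGDH rose most, to 164% of control, and the other calls were rises to between 118% and 127%. The median log2 fold change was 0.29, beside 0.00 for all genes. All 9 had every knockdown library above every control library, as had 20.8% of all genes, while 21.2% were separated downward and 42.0% either way. Both treatments were measured against the same 3 control libraries, so a state of those libraries touches both sets of values. In bulk RNA, fewer cells making a transcript and less RNA per cell cannot be told apart.

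Knockdown and PRGL493 were also compared directly, a contrast in which the control libraries do not enter the difference. Of 9 enzymes 8 were higher in knockdown cells and none lower, where 24.4% of all genes were higher and 26.0% lower, 50.4% in all. The libraries of the 8 lay wholly above those with PRGL493 and the libraries of ALDH18A1 wholly below, where 27.3% of all genes were separated upward, 28.8% downward and 56.0% either way. PHGDH and ASNS differed most, 3.30-fold and 3.21-fold, and the median log2 difference was 0.91, beside -0.01 for all genes. ALDH18A1 was the exception, with a log2 difference of -0.10 (95% interval -0.20 to 0.01, adjusted p = 0.11).

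**Figure D1:**
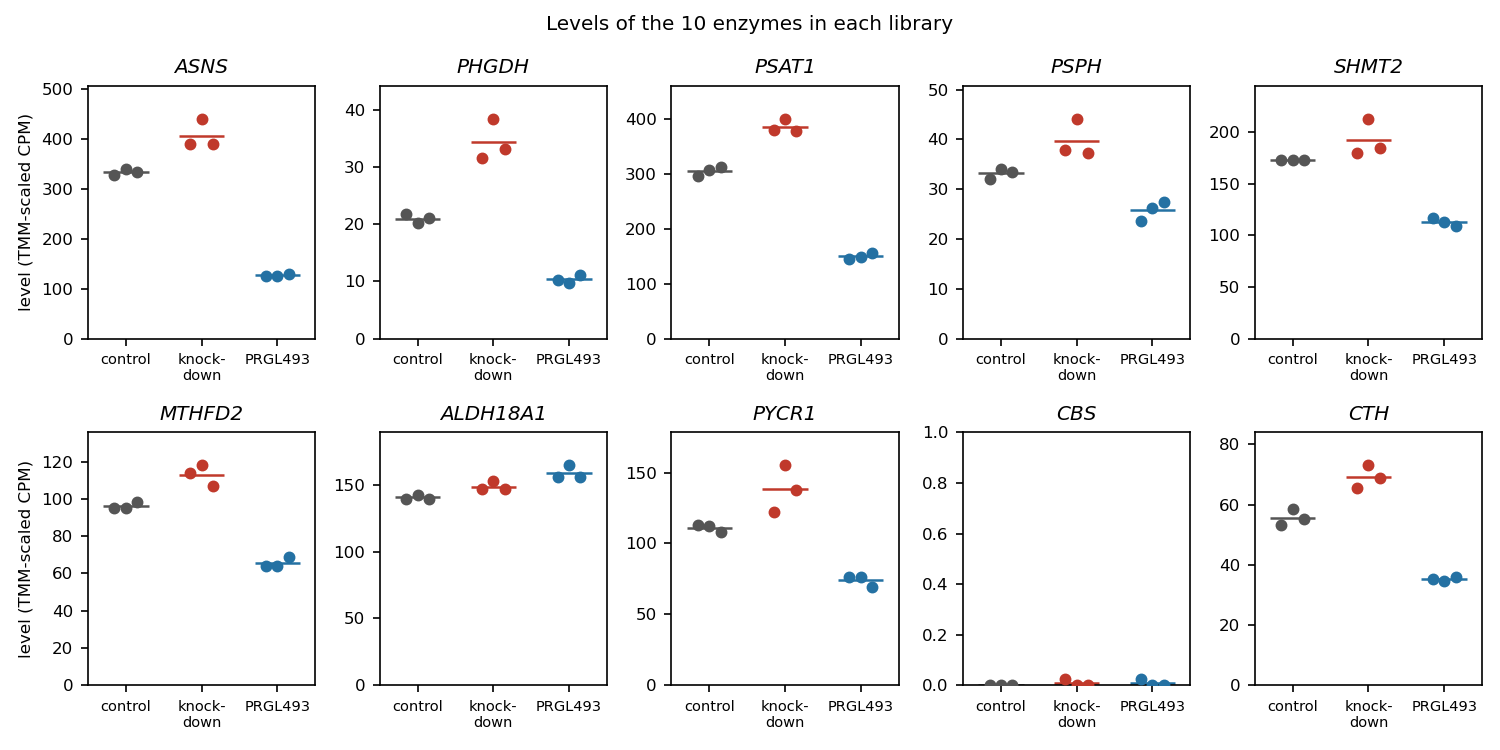
Level of each of the 10 enzymes in TMM-scaled CPM (vertical axes from 0), 3 points per group for the 3 libraries and a line at their mean. The PRGL493 points lie below control and the knockdown points above it in 8 panels, ALDH18A1 is highest with PRGL493, and CBS is at or near 0 throughout.

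Serine synthesis starts with PHGDH, which oxidises 3-phosphoglycerate and commits it to the pathway (chr1:119648411-119744226, plus strand, GRCh38). Its control libraries held 21.8, 20.2 and 21.1 CPM, the knockdown libraries 31.7, 38.5 and 33.3, and those with PRGL493 10.3, 9.79 and 11.2. The lowest knockdown library was thus above the highest control and the lowest control above the highest PRGL493 library. The rise in knockdown cells was 0.71 on the log2 scale (SE 0.08, adjusted p = 4.5e-06) and the change with PRGL493 was -1.01 (SE 0.09, adjusted p = 1.3e-07). Behind these levels stood 280 to 1461 counts per library. The 95% interval of the knockdown rise, 0.55 to 0.88, lay above the interval of every other enzyme, the next reaching to 0.47 for PYCR1.

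PSAT1, the aminotransferase of the middle step (chr9:78297143-78330093, plus strand), was far more abundant. Its levels were 296, 308 and 313 CPM in control, 381, 401 and 379 in knockdown and 146, 148 and 156 with PRGL493. The groups stood well apart and libraries of a group differed by little. The log2 fold change was 0.34 in knockdown (SE 0.05, adjusted p = 5.7e-05) and -1.03 with PRGL493 (SE 0.05, adjusted p = 6.8e-11). PSPH, the phosphatase of the last step (chr7:56011051-56051604, minus strand), moved less. It was at 32.0, 34.1 and 33.4 CPM in control, 37.8, 44.1 and 37.2 in knockdown and 23.7, 26.3 and 27.4 with PRGL493. PSPH rose in knockdown (log2 0.26, SE 0.08, adjusted p = 0.016) and fell with PRGL493 (log2 -0.37, SE 0.08, adjusted p = 0.0012). The knockdown call of PSPH was lost without control replicate 1 (log2 0.23, adjusted p = 0.071). PSAT1 and PSPH have annotated pseudogenes (PSAT1P1 to PSAT1P4, PSPHP1) that can take or lend reads, which makes their absolute levels less certain.

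The steps of serine synthesis did not keep a fixed proportion. Set against PSAT1 in the same library and per kilobase of exon, PSPH was at 0.107 to 0.111 in control, 0.0985 to 0.110 in knockdown and 0.162 to 0.178 with PRGL493. PHGDH against PSAT1 was at 0.0538 to 0.0605 in control, 0.0685 to 0.0789 in knockdown and 0.0543 to 0.0591 with PRGL493. The last step thus gained on the middle step with the inhibitor, and the first step gained on it with the hairpin. These ratios, and those given below for other steps, were chosen after the levels were seen and are descriptions.

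ASNS turns aspartate and glutamine into asparagine and glutamate (chr7:97852118-97872542, minus strand). Its levels were 327, 339 and 334 CPM in control, 390, 440 and 389 in knockdown and 126, 125 and 130 with PRGL493. Every PRGL493 library was under 40% of every control library. On the log2 scale ASNS changed by -1.39 with PRGL493 (SE 0.05, adjusted p = 5.2e-12), which placed it at percentile 1.41 of all genes from the most negative change. The rise in knockdown was 0.29 (SE 0.05, adjusted p = 0.00066), and 0.23 without knockdown replicate 2 (adjusted p = 0.00022). ASNS has the pseudogenes ASNSP1, ASNSP3, ASNSP4 and ASNSP6, and its exons overlap a second annotated gene on the same strand.

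The promoter of ASNS is the textbook example of amino acid control of transcription, and it holds a C/EBP-ATF response element, which ATF4 binds, followed by a second nutrient-sensing element. Windows of 250 bases before to 50 after a RefSeq start site (GRCh38.p14) were on hand for 7 of the 10 genes, not for PSPH, SHMT2 and PYCR1. They were searched on both strands for TGATGNAA (the core of the C/EBP-ATF response element), GTTACA (the second element of ASNS), TGACGTCA (the cAMP response element) and CACGTG (the E-box). Shown are the 3 enzymes that fell most with PRGL493 and ALDH18A1, the enzyme that rose, 5′ to 3′ on the gene's strand with matches in capitals.
ASNS: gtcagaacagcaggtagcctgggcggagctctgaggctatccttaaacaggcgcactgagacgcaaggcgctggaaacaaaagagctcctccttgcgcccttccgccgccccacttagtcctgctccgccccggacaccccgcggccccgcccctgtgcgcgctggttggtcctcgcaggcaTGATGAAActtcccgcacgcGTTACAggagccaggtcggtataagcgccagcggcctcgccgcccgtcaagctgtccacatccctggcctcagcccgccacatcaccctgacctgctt
PHGDH: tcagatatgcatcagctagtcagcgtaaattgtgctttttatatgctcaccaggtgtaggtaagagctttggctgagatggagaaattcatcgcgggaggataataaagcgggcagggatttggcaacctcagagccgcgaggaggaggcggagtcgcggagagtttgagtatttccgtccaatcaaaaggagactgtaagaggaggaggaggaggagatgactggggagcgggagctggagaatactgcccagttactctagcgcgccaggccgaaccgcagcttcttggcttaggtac
PSAT1: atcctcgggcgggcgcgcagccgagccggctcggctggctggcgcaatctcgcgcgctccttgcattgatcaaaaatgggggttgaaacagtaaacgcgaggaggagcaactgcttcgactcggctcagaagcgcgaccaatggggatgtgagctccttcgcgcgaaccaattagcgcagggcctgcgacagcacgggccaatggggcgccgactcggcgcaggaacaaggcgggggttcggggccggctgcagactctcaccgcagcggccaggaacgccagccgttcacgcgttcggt
ALDH18A1: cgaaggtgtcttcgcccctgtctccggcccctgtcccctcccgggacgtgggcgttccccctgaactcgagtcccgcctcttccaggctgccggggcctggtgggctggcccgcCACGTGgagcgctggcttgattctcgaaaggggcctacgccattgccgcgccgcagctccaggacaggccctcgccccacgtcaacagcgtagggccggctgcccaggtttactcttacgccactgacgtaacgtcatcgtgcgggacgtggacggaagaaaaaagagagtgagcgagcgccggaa
The windows are chr7:97872359-97872658 (minus strand) for ASNS, chr1:119711684-119711983 (plus) for PHGDH, chr9:78296875-78297174 (plus) for PSAT1 and chr10:95656662-95656961 (minus) for ALDH18A1. In this ASNS window the capitals are TGATGAAA, starting 68 bases before the start site, and GTTACA, starting 48 bases before it. These matches do not overlap each other. Another ASNS window, of a different start site (chr7:97872116-97872415), holds none of the 4 motifs. Of all 35116 windows 3.62% hold TGATGNAA and 6.66% hold GTTACA. In ALDH18A1 the capitals are the E-box CACGTG 136 bases before the start site, found in 7.26% of all windows. PHGDH and PSAT1 hold none of the 4 motifs in these windows, nor do the windows of MTHFD2, CTH and CBS. TGACGTCA was in none of the enzymes' windows and in 1.85% of all. Such a match is a description of letters, and other sites of these genes were not searched.

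**Figure D2:**
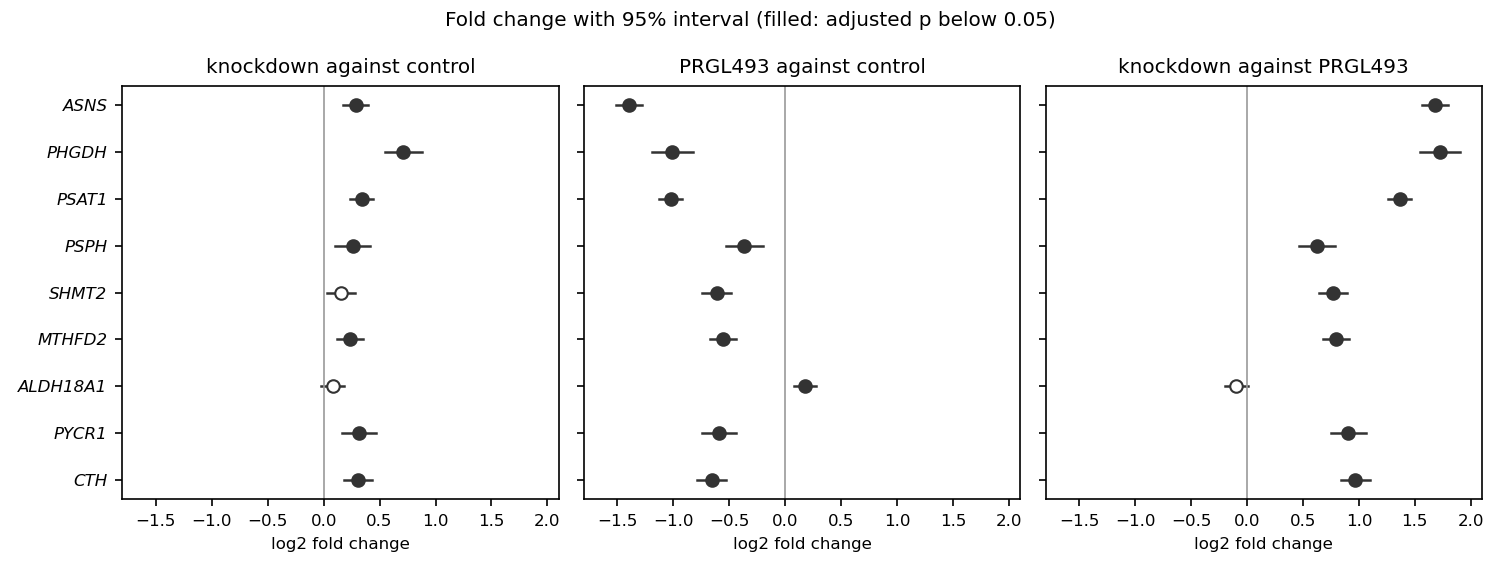
Log2 fold change of the 9 enzymes tested in each comparison (horizontal axis), with 95% intervals, filled where the adjusted p was below 0.05. Knockdown values lie between 0.08 and 0.71, PRGL493 values between -1.39 and 0.18, and ALDH18A1 alone is near 0 in the direct comparison.

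Both mitochondrial one-carbon enzymes fell with PRGL493, and only MTHFD2 of this pair was called higher in knockdown cells. SHMT2, the mitochondrial serine hydroxymethyltransferase (chr12:57229327-57234935, plus strand), was at 173 CPM in each of the control libraries, 180, 213 and 185 in knockdown and 117, 113 and 109 with PRGL493. Control libraries were alike to within 1 CPM, and the knockdown libraries varied most. With PRGL493 the log2 fold change of SHMT2 was -0.61 (SE 0.06, adjusted p = 6.9e-07). In knockdown it was 0.15 (SE 0.06, adjusted p = 0.062) and missed the threshold. The log2 fold change of SHMT2 in knockdown was 0.20 without knockdown replicate 1 (adjusted p = 0.010) and 0.07 without knockdown replicate 2 (adjusted p = 0.24), so its size rests largely on the latter library.

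MTHFD2, a methylenetetrahydrofolate dehydrogenase common in embryonic and tumour cells (chr2:74198562-74217565, plus strand), was at 94.9, 95.2 and 98.5 CPM in control. It was at 114, 118 and 107 CPM in knockdown and 63.8, 63.7 and 68.6 with PRGL493. The 3 groups did not overlap. The log2 fold change was 0.23 in knockdown (SE 0.05, adjusted p = 0.0041) and -0.56 with PRGL493 (SE 0.06, adjusted p = 7.3e-07). Per kilobase, SHMT2 stood at 2.59 to 2.68 times MTHFD2 in control, 2.32 to 2.65 times in knockdown and 2.34 to 2.70 times with PRGL493, so the ratio of this pair overlapped across the groups. Exons of both genes overlap genes on the opposite strand (NDUFA4L2 for SHMT2, SLC4A5 for MTHFD2), and MTHFD2 has 7 annotated pseudogenes. Whether counting used the strand is not given in the sources used here.

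Cytosolic and paralogous relatives of these enzymes, picked from the lists after their values were seen, gave mixed values. SHMT1, the cytosolic hydroxymethyltransferase, rose with PRGL493 from 20.6 ± 1.63 to 26.8 ± 1.46 CPM (SD, n = 3, log2 0.38, SE 0.09, adjusted p = 0.0018). MTHFD1, which handles folate carbon units in the cytosol, went from 169 ± 4.0 to 161 ± 3.93 CPM (log2 -0.07, SE 0.05, adjusted p = 0.30). PYCRL, a paralog of PYCR1, was at 16.6 ± 1.70 CPM in control and 18.5 ± 2.17 with PRGL493 (log2 0.15, SE 0.11, adjusted p = 0.29). MTHFD1L, which handles the carbon unit in mitochondria after MTHFD2, fell with PRGL493 from 60.4 ± 3.92 to 48.7 ± 0.938 CPM (log2 -0.31, SE 0.06, adjusted p = 0.00055). None of these 4 relatives was called in knockdown (adjusted p = 0.36 for SHMT1, 0.95 for MTHFD1, 0.68 for PYCRL and 0.091 for MTHFD1L). Whether their changes differ from those of SHMT2, MTHFD2 and PYCR1 was not tested.

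Proline synthesis split between its steps. PYCR1, the reductase of the last step (chr17:81932384-81942412, minus strand), was at 113, 112 and 108 CPM in control, 122, 155 and 138 in knockdown and 76.1, 76.1 and 69.5 with PRGL493. Knockdown libraries spread most and all lay above control. PYCR1 rose in knockdown (log2 0.31, SE 0.07, adjusted p = 0.0036) and fell with PRGL493 (log2 -0.59, SE 0.07, adjusted p = 8.4e-06). ALDH18A1, which makes the proline precursor from glutamate (chr10:95605929-95656706, minus strand), went the other way under the inhibitor. Its levels were 140, 143 and 140 CPM in control, 147, 153 and 147 in knockdown and 156, 165 and 156 with PRGL493. The groups did not overlap, though they lay close together. With PRGL493 ALDH18A1 rose by 0.18 on the log2 scale (SE 0.05, adjusted p = 0.0073), a call lost without PRGL493 replicate 2 (log2 0.14, adjusted p = 0.064). In knockdown the change was 0.08 (95% interval -0.02 to 0.18, adjusted p = 0.22). In the direct comparison ALDH18A1 was called lower in knockdown only without knockdown replicate 2 (log2 -0.11, adjusted p = 0.045). Per kilobase, ALDH18A1 was at 0.843 to 0.883 times PYCR1 in control, 0.675 to 0.826 times in knockdown and 1.41 to 1.54 times with PRGL493. Exons of PYCR1 overlap an annotated gene on the opposite strand.

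Of the transsulfuration pair CTH, the lyase that releases cysteine from cystathionine, passed the filter and CBS did not (CTH: chr1:70411218-70439851, plus strand). Its levels were 53.3, 58.6 and 55.1 CPM in control, 65.5, 73.0 and 68.7 in knockdown and 35.2, 34.7 and 36.0 with PRGL493. The 3 groups were separate and the PRGL493 libraries were nearly alike. CTH rose in knockdown (log2 0.31, SE 0.06, adjusted p = 0.00086) and fell with PRGL493 (log2 -0.66, SE 0.06, adjusted p = 3.1e-07). CBS, which makes cystathionine from homocysteine and serine (chr21:43053191-43076943, minus strand), had 1 read in knockdown replicate 1, 1 in PRGL493 replicate 1 and 0 in the other 7 libraries. A count of 0 allows a level of up to 0.105 CPM in the shallowest library (3 reads, counting error only), and no fold is given. CBS has a near-identical annotated copy, CBSL, in a duplicated part of chromosome 21 of this build, and CBSL was not analysed here, so reads shared between the copies may be missing from CBS. The splicing gene U2AF1, which neighbours CBS and whose copy U2AF1L5 neighbours CBSL, was counted with 1830 to 3243 reads per library. How reads shared between such copies were assigned is not given, and the bearing of this count on CBS was not tested.

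Levels can be compared between genes only per length, here CPM per kilobase of annotated exon. In control cells PSAT1 (140 ± 3.81, SD, n = 3) and ASNS (134 ± 2.47) stood highest, at percentiles 97.6 and 97.4 of all genes tested, and their libraries overlapped. SHMT2 (57.1 ± 0.127), PYCR1 (48.4 ± 1.13), ALDH18A1 (42.0 ± 0.646), CTH (26.0 ± 1.27), MTHFD2 (21.6 ± 0.448) and PSPH (15.2 ± 0.497) followed without overlap. PHGDH was the lowest of the 9 tested, with 7.90 ± 0.313 CPM per kilobase, near the middle of all genes at percentile 53.7. In knockdown cells the order was the same, with SHMT2 and PYCR1 overlapping as well as PSAT1 and ASNS. With PRGL493 ALDH18A1, at 47.4 ± 1.49, moved from place 5 to place 3, behind PSAT1 at 68.6 ± 2.32 and ASNS at 50.9 ± 0.980, and no neighbours in the order overlapped. Lengths are unions of the exons in GENCODE 29's basic set (2.14 to 4.46 kb), so a gene made mainly as a short transcript, which its union overstates, is placed too low.

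**Figure D3:**
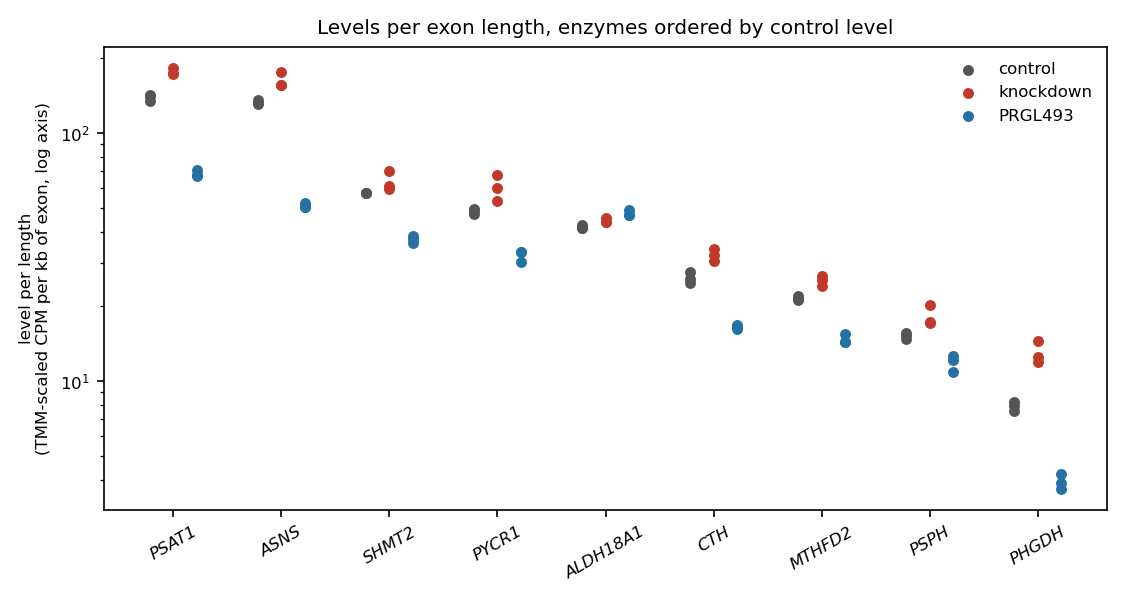
Level per exon length (TMM-scaled CPM per kb, log axis) of the 9 enzymes tested, 1 point per library, ordered by control level. PSAT1 and ASNS lead and PHGDH is last in all groups, and ALDH18A1 alone has its highest points with PRGL493.

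Other genes of these pathways changed in both directions. Of the 123 genes of 6 lists 108 passed the filter, and in PRGL493 against control 17 of these were higher and 42 lower, where 21.4% of all genes were higher, 20.4% lower and 41.8% called in all. The counts of single lists below are to be read against the same shares, and some lie under them. Purine synthesis genes, which use folate carbon units, were lower in 6 of 13 cases and higher in 1 (median log2 -0.14), with ATIC at -0.48 (adjusted p = 2.5e-06) and GART at -0.39 (1.4e-05) lower and PRPS2 at 0.25 (0.0015) higher. Serine and folate genes were lower in 8 of 25 and higher in 6 (median -0.07). Among them the mitochondrial folate carrier SLC25A32 (-0.46, adjusted p = 8.4e-06) and DLD, a subunit of the glycine cleavage system (-0.37, 2.9e-05), fell, while thymidylate synthase TYMS (0.52, 2.4e-06) and sarcosine dehydrogenase SARDH (0.44, 4.0e-04) rose.

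Genes of asparagine, aspartate, glutamate and proline metabolism were lower in 6 of 18 cases and higher in 3 with PRGL493 (median log2 -0.08). ASL, which splits argininosuccinate (-0.75, adjusted p = 1.4e-06), and the aspartate aminotransferase GOT1 (-0.69, 7.5e-07) fell. NADSYN1, which makes NAD (0.63, 6.2e-07), and the glutamine synthetase GLUL (0.49, 2.0e-06) rose. Methionine, transsulfuration and glutathione genes were lower in 3 of 20 and higher in 2 (median 0.09). AHCY, which frees homocysteine (-0.33, 0.00068), and ETHE1 of sulfide oxidation (-0.43, 0.0024) were the lower ones named by the rule, and glutathione reductase GSR (0.29, 0.0015) and TST (0.43, 0.0013) the higher ones.

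In knockdown cells 20 of the 108 list genes were higher and 22 lower, where 14.7% of all genes were higher and 15.3% lower, 30.1% in all. The counts of single lists are small, and some lie under these shares. Serine and folate genes were higher in 5 of 25 and lower in 1 (median log2 0.00), purine synthesis genes higher in 2 of 13 and lower in 1 (0.05). Asparagine, aspartate, glutamate and proline genes were higher in 3 of 18 and lower in 1 (0.00), and methionine, transsulfuration and glutathione genes higher in 3 of 20 and lower in 6 (-0.09). GPT2, a mitochondrial alanine aminotransferase, rose in knockdown (0.34, adjusted p = 0.00031) and fell with PRGL493 (-0.28, 0.0012). TYMS (0.38, 0.00011), GCSH of the glycine cleavage system (0.31, 0.0055), PRPS1 (0.23, 0.0093), GART (0.15, 0.041), GLUL (0.21, 0.0080), GGCT (0.26, 0.0055) and the methionine adenosyltransferase MAT2A (0.17, 0.0099) rose in knockdown too. SQRDL, the sulfide oxidase of mitochondria (-0.95, 2.4e-08), GCLC, which limits glutathione synthesis (-0.45, 1.8e-05), SFXN3 (-0.38, 9.1e-05), OAT (-0.30, 0.00035) and PFAS (-0.20, 0.031) fell. With PRGL493 SFXN3 (0.25, 0.0021) and OAT (0.31, 0.00013) rose and PFAS (-0.35, 0.00044) fell, and GCSH, PRPS1, GGCT, MAT2A, SQRDL and GCLC were not called.

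Stress response genes and other regulators listed with these enzymes did not move as a block. ATF4 RNA was at 301 ± 9.95 CPM in control, 352 ± 32.3 in knockdown (log2 0.23, SE 0.06, adjusted p = 0.0085) and 310 ± 8.33 with PRGL493 (log2 0.04, SE 0.06, adjusted p = 0.62). ATF4 is controlled largely at translation, and its protein was not measured here. Its partner CEBPG (107 ± 4.54 to 67.9 ± 3.15 CPM, log2 -0.65, adjusted p = 2.6e-07), DDIT3 (31.1 to 15.1 CPM, log2 -1.04, 3.3e-09) and the pseudokinase TRIB3 (115 to 60.9 CPM, log2 -0.91, 1.4e-08) fell with PRGL493. In knockdown DDIT3 fell (-0.37, adjusted p = 0.00041), and CEBPG (-0.10, 0.19) and TRIB3 (-0.09, 0.33) missed the threshold. MYC, which also drives several of these enzymes in tumours, fell from 397 ± 9.19 to 188 ± 11.4 CPM in knockdown (log2 -1.07, adjusted p = 1.1e-10) and to 258 ± 7.27 with PRGL493 (-0.62, 8.5e-08). Of 19 regulators tested 4 were higher and 7 lower in knockdown (median -0.10), and 4 higher and 10 lower with PRGL493 (median -0.25). Over all genes the shares were 14.7% higher and 15.3% lower in knockdown, and 21.4% and 20.4% with PRGL493, so the 4 higher with PRGL493 are near the background. PPP1R15A, which ends the stress response, fell in knockdown (-0.68, adjusted p = 4.9e-08) and with PRGL493 (-0.64, 8.2e-08). NUPR1 rose in knockdown (0.39, 0.0015) and fell with PRGL493 (-0.60, 2.4e-05). The kinase EIF2AK1 rose in knockdown (0.15, 0.022) and with PRGL493 (0.36, 1.2e-05). ATF5 rose with PRGL493 (0.69, adjusted p = 2.4e-06).

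Carriers of these amino acids were lower in 9 of 13 cases and higher in 1 with PRGL493 (median log2 -0.31), and lower in 6 and higher in 3 in knockdown (median -0.05). Over all genes 20.4% were lower and 21.4% higher with PRGL493, and 15.3% lower and 14.7% higher in knockdown. SLC38A5, a carrier of glutamine, serine and asparagine present at 5.41 CPM in control, fell with PRGL493 (-1.55, adjusted p = 1.6e-07) and in knockdown (-0.81, 0.00014). SLC38A1 fell with PRGL493 (-0.56, 4.4e-06), SLC7A5 fell in knockdown (-0.23, 0.0044) and with PRGL493 (-0.31, 0.00022), and SLC6A9, a glycine carrier, rose in knockdown (0.26, 0.0038) and fell with PRGL493 (-0.22, 0.0076). SLC25A38, a mitochondrial glycine carrier, rose in knockdown (0.65, 2.9e-07) and with PRGL493 (0.49, 5.7e-06). In the direct comparison of knockdown with PRGL493, 43 of the 108 list genes were higher and 25 lower, where 24.4% of all genes were higher and 26.0% lower, so the count of lower genes is near the background.

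**Figure D4:**
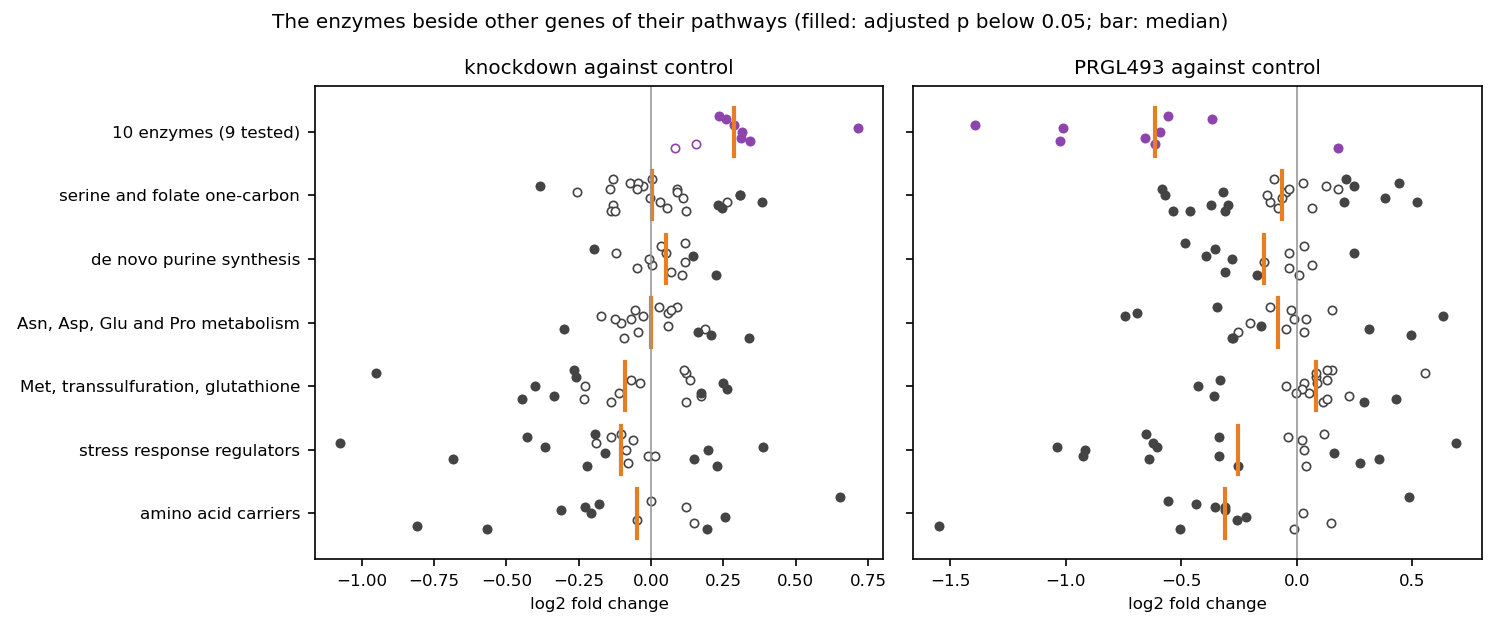
Log2 fold change (horizontal axes) of the 9 enzymes tested and of the genes of 6 other lists, 1 point per gene, filled where the adjusted p was below 0.05, with a bar at each median. The enzymes' medians are 0.29 in knockdown and -0.61 with PRGL493, and those of the other lists lie between -0.10 and 0.05 and between -0.31 and 0.09.

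Across the 9 libraries the enzymes other than ALDH18A1 followed the mean of all 9, themselves included, closely, with Pearson correlations of 0.968 for ASNS to 0.992 for CTH on log2 CPM. ALDH18A1 was at -0.549. The genes outside the set most like that mean were NME4, a mitochondrial nucleoside diphosphate kinase (0.997), MALL (0.996), EIF4EBP1, a repressor of cap-dependent translation (0.994), TAF6 (0.994) and CCNB1IP1 (0.993). EIF4EBP1 averaged 68.3 CPM in control, 85.8 in knockdown and 48.0 with PRGL493, and NME4 29.3, 36.7 and 21.5. These correlations describe 9 points in 3 groups that share libraries and depth.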

How the data were processed

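RNA-seq of 9 MDA-MB-231 libraries was used as the authors' deposited table of expected counts, which are estimated counts per gene symbol, not scaled for depth (10.5% of values not whole), made on the GRCh38 build, per the submitters' processing notes. Aligner, counter, annotation and strand setting remain not given in the sources used here. Values were rounded. The 28 rows whose symbol had become a date stayed in the totals and tests. Genes were filtered with filterByExpr (14135 of 26475 left) and TMM-scaled. edgeR 4.0.16 in R 4.3.3 (glmQLFit, robust, glmQLFTest) took in all 9 libraries, with only the group as a term (6 residual degrees of freedom, biological coefficient of variation 6.38%). The Benjamini-Hochberg adjustment ran over every gene tested, with a threshold of 0.05. Standard errors are those the test implies. The fit was checked on simulated data. Exon lengths and positions are from GENCODE 29 (GRCh38), promoters from RefSeq. DESeq2 1.42.0, other scalings, filters, a length correction (lowess on exon length, 97.5% of genes), a replicate block and leaving out each library were the alternatives.

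The 10 genes and the 6 pathway lists (current symbols matched to older ones) were chosen with earlier results of these data known. The text names all 10, up to 2 called genes per direction and list with the smallest adjusted p in either treatment, ATF4, CEBPG, DDIT3, TRIB3 and MYC, and the 5 genes most correlated with the enzymes' mean of z-scored log2 CPM (prior count 2). SHMT1, MTHFD1, MTHFD1L, PYCRL and U2AF1 were added after their values were seen.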

Additional observations from a re-analysis of the deposited data

How the results depend on the processing

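Over 19 alternatives no log2 fold change of the 9 enzymes changed direction in any of the 3 comparisons, and 506 of 513 values stayed on their side of the threshold. The 7 others concern PSPH, SHMT2 and ALDH18A1. Those that leave out a library stand in the report, and SHMT2 in knockdown was also called with library totals only (log2 0.19, adjusted p = 0.021), with upper-quartile factors (0.19, 0.028) and with the length trend removed (0.13, 0.042). Enzymes called ranged from 6 to 8 in knockdown against control, 8 to 9 in PRGL493 against control and 8 to 9 between the treatments, and list genes called from 29 to 49, 52 to 68 and 65 to 75. Of all calls in knockdown against control 49.0% were higher, against 59.8% with library totals only and 58.7% with upper-quartile factors. Between knockdown and PRGL493 48.4% were higher, against 58.4% with upper-quartile factors.

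With the replicate number as a block the counts of enzymes called were 7, 9 and 8, as without it, and the list genes called 38, 56 and 68. The labels share numbers but do not say that a number marks a shared batch. Same-numbered control and knockdown libraries correlated at 0.108, 0.152 and 0.062 in their deviations from group means, each best with its own number. Deviations within a group offset each other, so these values are not independent. They cannot show whether a number marks a shared batch. Same-numbered libraries correlated at -0.084 to -0.015 between PRGL493 and control and at -0.071 to -0.038 between PRGL493 and knockdown. Tested enzymes had 280 counts or more in every library, and the few reads of CBS allow no comparison.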
